A study of Mus musculus with 4 samples.

Results

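Transcripts of 8 genes of the Myc and Max network, Myc, Mycn, Max, Mxd1, Mxd4, Mxi1, Mnt and Mlx, were followed in hematopoietic stem and progenitor cells of mouse bone marrow with and without the nucleoporin Nup358. The genes were taken by exact match of these symbols in the feature table, and all 8 of them were found among its 27998 genes. Live Lin-Sca1+cKit+ (LSK) cells had been sorted and counted in droplets by the 3′ ends of their transcripts, each molecule carrying a unique molecular identifier (UMI). The control genotype was Nup358 fl/fl (wild-type in the labels). The knockout genotype was Nup358 fl/fl CreERT2, in which Cre recombinase is expressed from R26 in all tissues and becomes active with tamoxifen. There were 2 libraries per genotype, each made from the pooled marrow of 3 mice aged 9 to 12 weeks, and tamoxifen was given on 3 days in a row. The interval from tamoxifen to the sort of these libraries is not given in the sources used here. Since Cre acts in every tissue, an effect on the progenitors themselves and one of their surroundings cannot be told apart in these cells.

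Max forms dimers with the other proteins of the network and takes them to E-box sequences in DNA. Myc and Mycn, as partners of Max, activate genes for ribosome production, metabolism and cell growth. Mxd1, Mxd4, Mxi1 and Mnt compete for Max and recruit the Sin3 corepressors to the same sites, and Mxd proteins are known to accumulate as cells leave the cell cycle or mature. Mlx is the Max-like partner of the glucose-responsive Mondo proteins and can also bind Mnt and some Mxd proteins. In bone marrow Myc and Mycn are known to act together in stem cell survival and in the exit of stem cells from their niche.

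The promoters of 3 members are printed as examples of the patterns described below. Mxd4 fell in the knockout. Across the gate sums Mxd1 ran with Mxd4 (Pearson's r = 0.76) and Mlx ran against it (-0.70). Mxi1 (0.79) and Mnt (0.72) ran with Mxd4 as well. In the knockout Mlx did not run against Mxd4, with an estimate of -0.45 over all LSK cells that did not pass. Each window covers 250 bases before to 50 bases after the annotated start, 5′ to 3′ on the strand of the gene, from RefSeq on GRCm38.p6. The windows lie at chr5:34187661-34187960 (minus strand) for Mxd4, chr6:86669110-86669409 (minus strand) for Mxd1 and chr11:101087040-101087339 (plus strand) for Mlx. Capitals mark the E-box CACGTG, a palindrome that reads the same on both strands.
Mxd4: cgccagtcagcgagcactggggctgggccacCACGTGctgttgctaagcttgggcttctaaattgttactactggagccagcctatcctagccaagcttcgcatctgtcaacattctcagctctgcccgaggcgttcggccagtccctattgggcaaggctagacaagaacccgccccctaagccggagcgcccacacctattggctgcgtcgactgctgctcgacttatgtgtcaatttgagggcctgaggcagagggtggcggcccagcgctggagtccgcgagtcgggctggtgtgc
Mxd1: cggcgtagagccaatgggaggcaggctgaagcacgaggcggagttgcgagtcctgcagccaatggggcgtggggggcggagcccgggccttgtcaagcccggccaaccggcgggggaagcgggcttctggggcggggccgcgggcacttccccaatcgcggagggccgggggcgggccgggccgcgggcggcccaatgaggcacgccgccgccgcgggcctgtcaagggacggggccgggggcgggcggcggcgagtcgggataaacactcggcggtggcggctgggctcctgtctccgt
Mlx: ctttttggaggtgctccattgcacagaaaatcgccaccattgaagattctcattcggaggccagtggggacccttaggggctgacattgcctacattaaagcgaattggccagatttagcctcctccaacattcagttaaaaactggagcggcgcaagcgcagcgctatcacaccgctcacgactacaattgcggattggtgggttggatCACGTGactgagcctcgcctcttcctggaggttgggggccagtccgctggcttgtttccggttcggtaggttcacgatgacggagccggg
The first base of the E-box stood at position -219 from the start in Mxd4 and at -40 in Mlx, and the Mxd1 window held none. Mnt (-123) and Max (-3) also carried 1 each, and the Mycn window and the 3 windows of Mxi1 carried none. The motif was thus present in 4 of the 9 windows of the 7 members with an entry (44.4%), against 7.15% of all 32851 promoter windows. It was present in 5 of 21 windows of the ribosome biogenesis genes and in 9 of 22 windows of the growth genes described below. Myc had no entry. These matches describe the letters of the windows only.

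All members are protein-coding genes of the GENCODE annotation of GRCm38. Myc lies at chr15:61985391-61990374 on the plus strand and Mycn at chr12:12936093-12941914 on the minus strand, and no other annotated gene overlaps either of them. Max (chr12:76937269-76962201, minus strand) and Mxd1 (chr6:86647042-86669161, minus strand) each share their strand with a transcript model, Gm47218 and Gm44292. Mxd4 (chr5:34173883-34187720, minus strand) overlaps the antisense gene Gm42846, Mxi1 (chr19:53310518-53375810, plus strand) overlaps AC133451.2 and Gm10197 on the other strand, and Mlx (chr11:101087277-101092207, plus strand) overlaps Psmc3ip on the other strand. Mnt (chr11:74830920-74845725, plus strand) has no overlapping gene. Whether the models on the same strand were among the genes counted, and how reads of shared sequence were counted, was not checked. Counts of 3′ ends depend on each gene's last exon, so that levels are compared here between cells and not between genes.

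The 4 libraries held 25242 barcodes, of which 6680 sequences occurred in more than 1 library. Where the UMIs of such a sequence in another library were 3-fold or more of its own, the barcode was left out as a copy. This removed 10936 barcodes (43.3%), at 14.8% and 81.8% in the controls and 65.3% and 18.8% in the knockouts. The cells kept numbered 7830 and 1200 in the controls and 1589 and 3422 in the knockouts, with 18846887 to 59033602 UMIs per library and 6251 to 17707 UMIs in the median cell. Ranbp2, which encodes Nup358, was at 127 and 101 UMIs per 1000000 UMIs of the library (CPM) in the controls and at 124 and 126 CPM in the knockouts. The deleted exon lies near the start of the gene and is not read by 3′ counts, so that this level does not check the genotype. The sort markers Kit and Ly6a, which encodes Sca1, were detected in every gate of every library that gave a value.

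Cells were assigned to gates by marker lists that contain no member of the network. In each of the 12513 cells with at least 3000 UMIs, 3000 UMIs were drawn and the markers counted, and a cell was high for a list at the smallest count, at least 3, at which the share of cells, averaged over the 4 libraries, was no more than 15%. Cells high for B-lineage genes, for genes of plasmacytoid, T or NK cells, or for more than 1 lineage were set apart, as were 141 unprimed cells high for both stem and cycling genes. The rest gave 1206 stem-like cells (at least 10 UMIs of Procr, Hlf, Mecom and 13 other stem genes), 1024 cycling unprimed cells (at least 14 UMIs of 19 mitotic genes), 2286 neutrophil-primed cells (at least 12 UMIs of Elane, Prtn3 and 7 others), 740 megakaryocyte-erythroid-primed cells, 860 lymphoid-primed cells and 5198 ungated cells. Primed cells could be cycling as well. Of the 796 cells set apart by the plasmacytoid, T and NK list, 42.1% also reached the neutrophil cut. Full UMI counts were then summed for each gate in each library and tested with edgeR. The libraries gave unequal numbers of cells. Neutrophil-primed cells numbered 1980 and 164 in the controls and 79 and 63 in the knockouts. Control replicate 2 gave 42 cycling unprimed and 58 megakaryocyte-erythroid-primed cells.

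The shares of cells in some of these gates did not overlap between the genotypes. Neutrophil-primed cells made up 29.4% and 13.8% of the control cells and 5.44% and 2.00% of the knockout cells. Stem-like cells made up 10.3% and 25.04% against 5.16% and 4.55%, ungated cells 31.3% and 33.7% against 62.4% and 56.8%, and B-lineage cells 0.119% and 0.506% against 3.30% and 5.47%. The shares of the genotypes overlapped for cycling unprimed (7.90% and 3.54% against 7.23% and 10.97%), megakaryocyte-erythroid-primed (6.43% and 4.89% against 4.34% and 5.92%) and lymphoid-primed cells (5.68% and 14.2% against 5.02% and 7.54%). A level over all LSK cells is therefore a mean over different mixtures, and each genotype comparison is given within gates as well. The megakaryocyte-erythroid-primed gate is a cut of at least 3 UMIs of 9 marker genes. The authors reported that clusters primed for these lineages expanded in the knockout. Their clusters were not rebuilt here, and this gate does not stand for them.

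Of the 4 comparisons with stem-like cells, that of neutrophil-primed cells had the most members past the threshold and also the largest share of all genes. Against stem-like cells of the same library, neutrophil-primed cells had far less Mycn, less of the 4 Max-binding repressors and more Mlx. All 8 members passed the threshold of an adjusted p under 0.05 in this comparison, where 55.9% of the 11125 genes tested did so, 28.7% higher and 27.2% lower. In the other gates fewer members passed. In megakaryocyte-erythroid-primed cells these were Mlx (higher) and Mxd4 (lower), where 34.8% of genes passed, 17.8% higher and 17% lower. In lymphoid-primed cells it was Mycn (lower), where 21.5% of genes passed, 11% higher and 10.5% lower. Those in cycling unprimed cells were Mlx (higher) and Mycn (lower), where 20.8% passed, 10.3% higher and 10.6% lower. The counts of members in these other gates were near or below the share of all genes. They are not read as a result about the network.

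**Figure D1:**
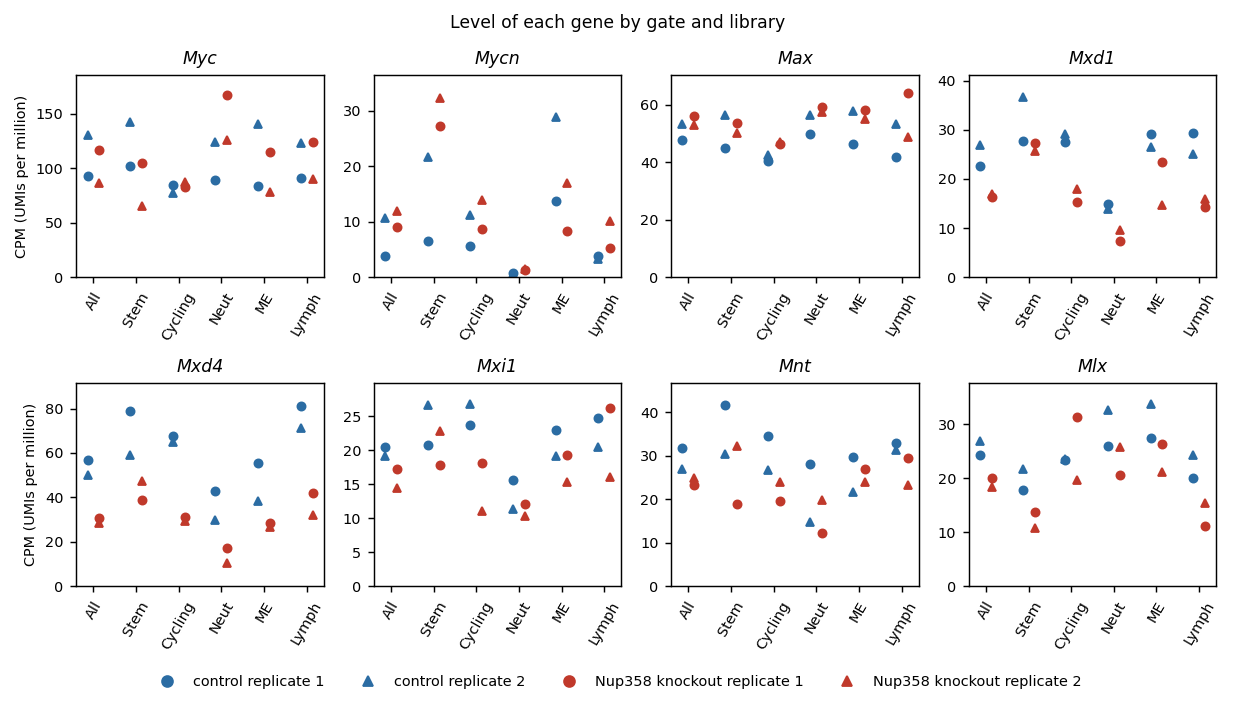
Level of each member (CPM, linear axis from 0) in all LSK cells and in 5 gates, with 1 point per library (circles, replicate 1; triangles, replicate 2; blue, control; red, Nup358 knockout; Stem, stem-like; Neut, neutrophil-primed; ME, megakaryocyte-erythroid-primed; Lymph, lymphoid-primed). The red Mxd4 points lie below the blue ones in every gate, and Mycn is at 0.682 to 1.48 CPM in the neutrophil-primed gate.

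Mycn, the Myc family member of immature cells, had the steepest gradient. In stem-like cells it was at 6.56 and 21.7 CPM in the controls and 27.3 and 32.2 CPM in the knockouts. In neutrophil-primed cells the levels were 0.801 and 0.682 CPM in the controls and 1.40 and 1.48 CPM in the knockouts, from 2 to 18 UMIs per library. Each library was thus lower in its neutrophil-primed than in its stem-like cells, and control replicate 1 had the lowest stem-like level. The log2 fold change in neutrophil-primed cells was -3.78 ± 0.38 (SE, adjusted p = 7.49e-09). The order of the mean levels over the 4 libraries was stem-like (21.9 ± 11.1 CPM, SD over both genotypes), megakaryocyte-erythroid-primed (17.0 ± 8.68), cycling unprimed (9.85 ± 3.48), lymphoid-primed (5.67 ± 3.13) and neutrophil-primed (1.09 ± 0.41). Neighbours in this order did not pass a test of their difference (adjusted p = 0.631, 0.0601 and 0.159) except for the last pair, lymphoid-primed and neutrophil-primed (adjusted p = 0.000609). In that pair 43% of all genes passed. Against stem-like cells Mycn was also lower in lymphoid-primed (-1.67 ± 0.32, adjusted p = 0.000352) and cycling unprimed cells (-0.95 ± 0.28, adjusted p = 0.0175). The call in cycling cells was lost without knockout replicate 1 (-0.79, adjusted p = 0.101) and without knockout replicate 2 (-0.90, adjusted p = 0.0986).

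Myc itself varied little between gates and did not follow Mycn. Its mean level was 127 ± 31.7 CPM in neutrophil-primed, 107 ± 18.7 in lymphoid-primed, 104 ± 29.0 in megakaryocyte-erythroid-primed, 104 ± 31.4 in stem-like and 82.8 ± 4.31 in cycling unprimed cells. No neighbouring pair in this order passed (adjusted p = 0.0664, 0.688, 0.889 and 0.213). The extremes, neutrophil-primed and cycling unprimed cells, differed by 0.65 ± 0.14 on the log2 scale (adjusted p = 0.000483), where 46.4% of all genes passed. Between neutrophil-primed and stem-like cells the fitted difference was 0.38 ± 0.14 (adjusted p = 0.0254), and the genotypes differed. Control levels were 89.3 and 124 CPM in neutrophil-primed against 102 and 143 CPM in stem-like cells, and knockout levels were 167 and 126 CPM against 105 and 65.8 CPM. Both knockouts were higher in the neutrophil-primed gate. Both controls were lower in CPM, which leave out the scaling factors of the fit (TMM). In the controls these factors were 0.934 and 0.866 for neutrophil-primed and 1.07 and 0.992 for stem-like sums. After that scaling the controls were about level between the gates. The pooled call for Myc was lost without knockout replicate 1 (0.25, adjusted p = 0.205), without knockout replicate 2 (0.22, adjusted p = 0.207) and with the gate limit at 8% (0.05, adjusted p = 0.769). Without knockout replicate 2 Myc passed as lower in cycling unprimed than in stem-like cells (-0.49, adjusted p = 0.0331).

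The mean level of Max, the common partner, ran from 55.8 ± 4.07 CPM in neutrophil-primed through 54.2 ± 5.42 in megakaryocyte-erythroid-primed, 52.0 ± 9.37 in lymphoid-primed and 51.2 ± 4.93 in stem-like to 44.0 ± 3.25 CPM in cycling unprimed cells. No neighbouring pair passed (adjusted p = 0.0551, 0.698, 0.937 and 0.108). The extremes, neutrophil-primed and cycling unprimed cells, differed by 0.50 ± 0.08 on the log2 scale (adjusted p = 1.53e-05), and Max was also higher in megakaryocyte-erythroid-primed than in cycling unprimed cells (0.30 ± 0.09, adjusted p = 0.0135). Of all genes 46.4% and 22.7% passed in these pairs. The fitted rise of 0.30 ± 0.08 in neutrophil-primed over stem-like cells (adjusted p = 0.00343) was small. Part of it comes from the TMM factors, which were lower in the neutrophil-primed sum of each library. In control replicate 2 Max was at 56.4 CPM in neutrophil-primed and 56.3 CPM in stem-like cells. Without control replicate 1 the rise was 0.24 and did not pass.

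The 4 repressors that bind Max were each lower in neutrophil-primed than in stem-like cells, and each had its lowest mean of the 5 gates there. Mxd4, which is kept up in resting cells, was at 79.0 and 59.0 CPM in control and 38.9 and 47.2 CPM in knockout stem-like cells. In neutrophil-primed cells it was at 42.8 and 30.0 CPM in the controls and 17.3 and 10.3 CPM in the knockouts. Every library was lower in its neutrophil-primed cells, by -0.87 ± 0.12 in the fit (adjusted p = 6.13e-07). Mxd4 was highest in lymphoid-primed (56.6 ± 23.3 CPM) and stem-like cells (56.0 ± 17.4), followed by cycling unprimed (48.2 ± 20.9), megakaryocyte-erythroid-primed (37.2 ± 13.2) and neutrophil-primed cells (25.1 ± 14.3), with a wide SD because the genotypes differed. The first 3 neighbouring pairs did not pass (adjusted p = 0.723, 0.137 and 0.1404), and the last did (adjusted p = 0.0181), where 42.1% of all genes passed. Megakaryocyte-erythroid-primed cells were also below stem-like cells (-0.50 ± 0.12, adjusted p = 0.00295).

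Mxd1, a repressor induced during myeloid maturation in other settings, was likewise low in this early neutrophil-primed gate. It was at 27.8 and 36.7 CPM in control and 27.3 and 25.8 CPM in knockout stem-like cells. The neutrophil-primed values were 14.9 and 13.9 CPM in the controls and 7.46 and 9.59 CPM in the knockouts, and the 2 gates did not overlap. The difference was -1.04 ± 0.14 (adjusted p = 7.82e-07), while the other gates lay between (22.5 ± 6.83 CPM in cycling unprimed, 23.4 ± 6.27 in megakaryocyte-erythroid-primed and 21.1 ± 7.22 in lymphoid-primed cells) and did not pass against stem-like cells. Without control replicate 1 the lymphoid-primed value for Mxd1 was -0.59 and passed (adjusted p = 0.0218). Mxi1 (22.0 ± 3.69 CPM in stem-like and 12.4 ± 2.29 in neutrophil-primed cells) and Mnt (30.8 ± 9.36 and 18.7 ± 7.02) were also lower in neutrophil-primed cells, by -0.61 ± 0.16 (adjusted p = 0.00208) and -0.50 ± 0.14 (adjusted p = 0.00487), and each was lower in 4 of 4 libraries. The call of Mxi1 rested on control replicate 2, without which it was -0.47 (adjusted p = 0.0501). Neither gene passed against stem-like cells in another gate. Against cycling unprimed cells the lower level in neutrophil-primed cells did not pass for Mxi1 (adjusted p = 0.0727) or Mnt (adjusted p = 0.142). Against megakaryocyte-erythroid-primed cells it passed for Mxi1 (adjusted p = 0.0246) and not for Mnt (adjusted p = 0.213), and for Mxd1 it passed against all 4 other gates. In the pairs of these gates with the neutrophil-primed gate 42.1% to 55.9% of all genes passed.

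Mlx, the partner of the Mondo proteins, ran against the repressors. Stem-like cells held 17.8 and 21.7 CPM in the controls and 13.7 and 10.7 CPM in the knockouts. Neutrophil-primed cells held 26.0 and 32.5 CPM in the controls and 20.5 and 25.8 CPM in the knockouts, above the stem-like cells of the same library in each case. The mean levels were 27.1 ± 5.15 CPM in megakaryocyte-erythroid-primed, 26.2 ± 4.91 in neutrophil-primed, 24.5 ± 4.92 in cycling unprimed, 17.7 ± 5.72 in lymphoid-primed and 15.99 ± 4.81 in stem-like cells. No neighbouring pair passed (adjusted p = 0.537, 0.137, 0.0629 and 0.529). Against stem-like cells Mlx was higher in neutrophil-primed (0.82 ± 0.15, adjusted p = 3.67e-05), megakaryocyte-erythroid-primed (0.70 ± 0.17, adjusted p = 0.00182) and cycling unprimed cells (0.59 ± 0.16, adjusted p = 0.00955), and not in lymphoid-primed cells (0.17 ± 0.17, adjusted p = 0.529).

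**Figure D2:**
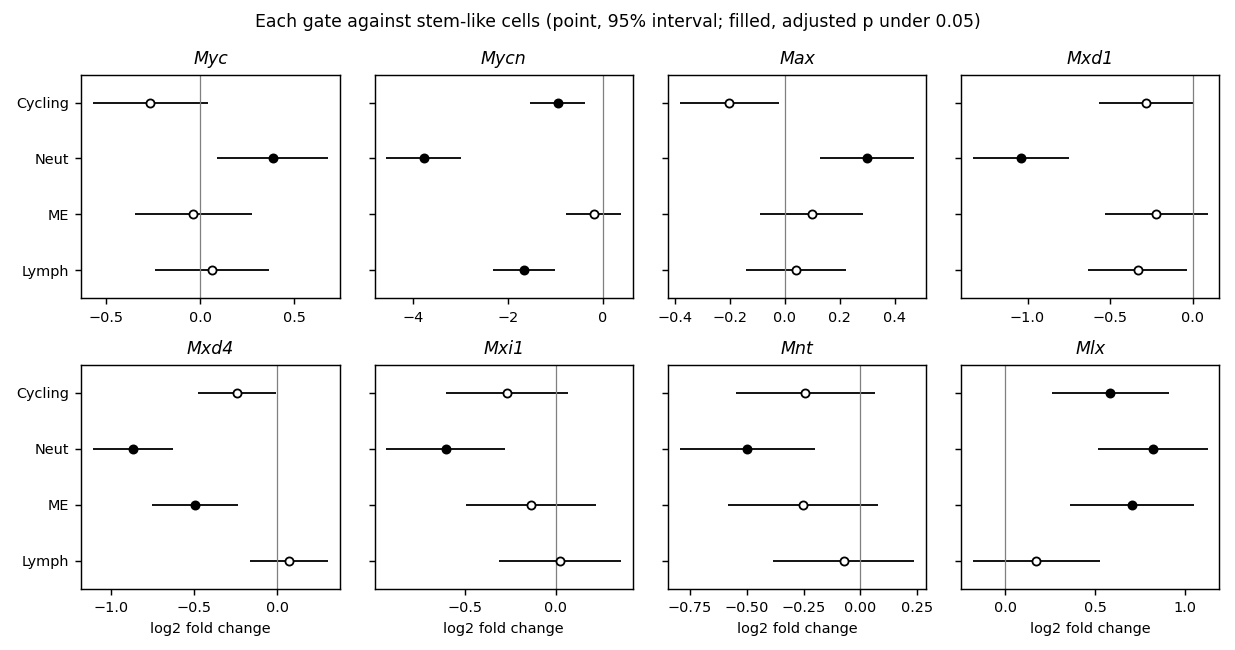
Log2 fold change of each member in 4 gates against stem-like cells, with its 95% interval, from the edgeR fit over 24 sums (6 gates in 4 libraries) with library as a term; filled points have an adjusted p under 0.05. In the neutrophil-primed row Myc, Max and Mlx lie right of 0 and Mycn, Mxd1, Mxd4, Mxi1 and Mnt left of it.

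The genes that the network is known to control were read from lists. Of 25 ribosome biogenesis genes, 24 were higher in neutrophil-primed than in stem-like cells and none lower, led by Nolc1 (1.00 ± 0.09), Bop1 (0.99 ± 0.10) and Noc4l (0.98 ± 0.13), all nucleolar proteins of ribosome assembly. Of 18 growth and metabolism genes 17 were higher, among them Tmem97 (1.70 ± 0.13), the transferrin receptor Tfrc (1.53 ± 0.24) and the spermidine synthase Srm (1.20 ± 0.15). The list medians were 0.56 and 0.81, against 0.00135 over all genes tested. The neutrophil-primed counts stand beside 28.7% of all genes higher. In megakaryocyte-erythroid-primed cells 18 of 25 and 13 of 18 were higher, beside 17.8% of all genes. In lymphoid-primed cells 4 and 7 were higher, beside 11% of all genes, and in cycling unprimed cells 1 and 2, beside 10.3%, with the cyclin Ccnd2 lower (-0.33 ± 0.10). The ribosome biogenesis count in lymphoid-primed cells and both counts in cycling unprimed cells were thus near or below the share of all genes. Mitotic genes moved with these lists, since 19 of 19 of the cycling markers were higher in each of the 3 primed gates than in stem-like cells, from which cycling cells had been removed. The part of the cell cycle in these differences was not tested. In cycling unprimed cells, which were selected for mitotic genes, the list medians were 0.04 and 0.11.

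Genes that Myc represses together with Miz1 were mixed. The cell cycle inhibitors Cdkn1a (-0.43 ± 0.15) and Cdkn1b (-0.64 ± 0.13) and the stress gene Ndrg1 (-0.65 ± 0.13) were lower in neutrophil-primed than in stem-like cells. Ndrg1 was instead higher in megakaryocyte-erythroid-primed cells (0.67 ± 0.13), as was Gadd45a (1.30 ± 0.19), while Cdkn1a was lower there (-0.80 ± 0.17). Cdkn1b was higher in cycling unprimed cells (0.38 ± 0.12) and Ndrg1 lower in lymphoid-primed cells (-0.82 ± 0.15). Cdkn2b was not tested because its counts were low.

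Of the 2 genes known to be switched on by Mlx with a Mondo partner, Txnip, a regulator of glucose uptake, was lower than in stem-like cells in all 4 gates, from -0.43 ± 0.12 in megakaryocyte-erythroid-primed to -1.60 ± 0.12 in neutrophil-primed cells, which is the opposite direction to Mlx in 3 of them. Txnip was at 108, 178, 163 and 166 CPM in stem-like cells of control 1, control 2, knockout 1 and knockout 2 and at 40.3, 42.3, 46.2 and 48.7 CPM in neutrophil-primed cells. Its paralog Arrdc4 was lower in lymphoid-primed cells (-0.93 ± 0.24) and passed in no other gate. Among the remaining partners, Mxd3, the Mxd protein of dividing cells, was higher in all 4 gates and most so in cycling unprimed cells (2.72 ± 0.30, adjusted p = 2.03e-07). Mga, a large Max-binding repressor, was lower in neutrophil-primed cells (-0.45 ± 0.10), Mlxip, the Mondo partner of Mlx, passed in no gate, and Mycl and Mlxipl were too low to test.

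Cofactors and genes of Myc turnover were read the same way. Of 16 genes, 6 were higher and 2 lower in neutrophil-primed cells, beside 28.7% and 27.2% of all genes. In either direction 55.9% of all genes passed, so these counts are not read as a result about the list. The helicase genes Ruvbl2 (0.99 ± 0.08) and Ruvbl1 (0.55 ± 0.08) were among the higher. The kinase Pim1 (-0.73, the cofactor of Myc induced by cytokines) and Trrap (-0.34) were the lower. Pim1 was also lower in cycling unprimed (-0.65 ± 0.08) and megakaryocyte-erythroid-primed cells (-1.12 ± 0.09). Bin1, a Myc-binding protein, was higher in lymphoid-primed (1.25 ± 0.14) and neutrophil-primed cells (0.71 ± 0.14).

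Nup358 knockout cells were next compared with control cells. Mxd4 was the 1 member that passed over all LSK cells, where 3.44% of 13779 genes passed (2.07% lower, 1.37% higher). It was at 56.8 and 50.2 CPM in the controls and 30.6 and 28.5 CPM in the knockouts. The log2 fold change was -0.90 ± 0.14 (95% interval -1.23 to -0.57, adjusted p = 0.0246). Removal of the B-lineage cells, tried once the data had been seen, kept the call of Mxd4 (-0.88, adjusted p = 0.0272). The members called changed as libraries were left out. Without knockout replicate 1 Mxd4 was at -0.94 (adjusted p = 0.0940) and without knockout replicate 2 at -0.85 (adjusted p = 0.189), so that the size held and the call did not.

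Within gates the difference in Mxd4 ran from -0.73 to -1.38. In lymphoid-primed cells it was at 81.1 and 71.4 CPM in the controls and 41.8 and 32.2 CPM in the knockouts (-1.07 ± 0.20, adjusted p = 0.0207), where 2.44% of genes passed and 1.59% were lower. In cycling unprimed cells it was at 67.8 and 64.8 CPM against 31.0 and 29.3 CPM (-1.13 ± 0.18, adjusted p = 0.0193), where 1.42% passed and 0.916% were lower. In neutrophil-primed cells it was at 42.8 and 30.0 CPM against 17.3 and 10.3 CPM (-1.38 ± 0.28, adjusted p = 0.0295), where 1.74% passed and 1.23% were lower. Mxd4 was the only member past the threshold in each of these 3 gates. Marker genes also differed between the genotypes in these gates, as given below, and their part in the fall of Mxd4 was not tested. Stem-like (-0.73 ± 0.23, adjusted p = 0.277) and megakaryocyte-erythroid-primed cells (55.3 and 38.4 CPM against 28.3 and 26.6 CPM, -0.83 ± 0.23, adjusted p = 0.160) showed the same direction without passing, and no member passed in either. In stem-like cells 0.368% of genes passed (0.0696% higher, 0.298% lower), which is 37 of 10057 genes, against 1097 at an unadjusted p under 0.05. In megakaryocyte-erythroid-primed cells 0.586% passed (0.0823% higher, 0.504% lower). At an unadjusted p under 0.05 the members were Mxd4 and Mlx in the former and Mxd4 and Mxd1 in the latter, where 1105 of 9724 genes reached that p. DESeq2 called 0 members in both gates. In the ungated cells, which held the largest share of both knockouts, Mxd4 was at 60.7 and 52.8 CPM against 29.6 and 28.4 CPM. The knockout libraries lay below the control libraries in all of these gates, but the share of all genes that separate in this way was not counted. The call of Mxd4 in cycling unprimed cells was lost with the gate limit at 8% in place of 15% (adjusted p = 0.0520) and with the replicate number as a block (-1.12, adjusted p = 0.0839). The calls within gates also depended on the knockout libraries. Without knockout replicate 1 the values were -1.22 (adjusted p = 0.0701) in lymphoid-primed, -1.15 (adjusted p = 0.444) in cycling unprimed and -1.86 (adjusted p = 0.0596) in neutrophil-primed cells, and without knockout replicate 2 they were -0.86 (adjusted p = 0.401), -1.11 (adjusted p = 0.206) and -1.09 (adjusted p = 0.278). Without control replicate 2 the stem-like (-0.87, adjusted p = 0.0197) and megakaryocyte-erythroid-primed values of Mxd4 (-0.96, adjusted p = 0.00909) passed.

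**Figure D3:**
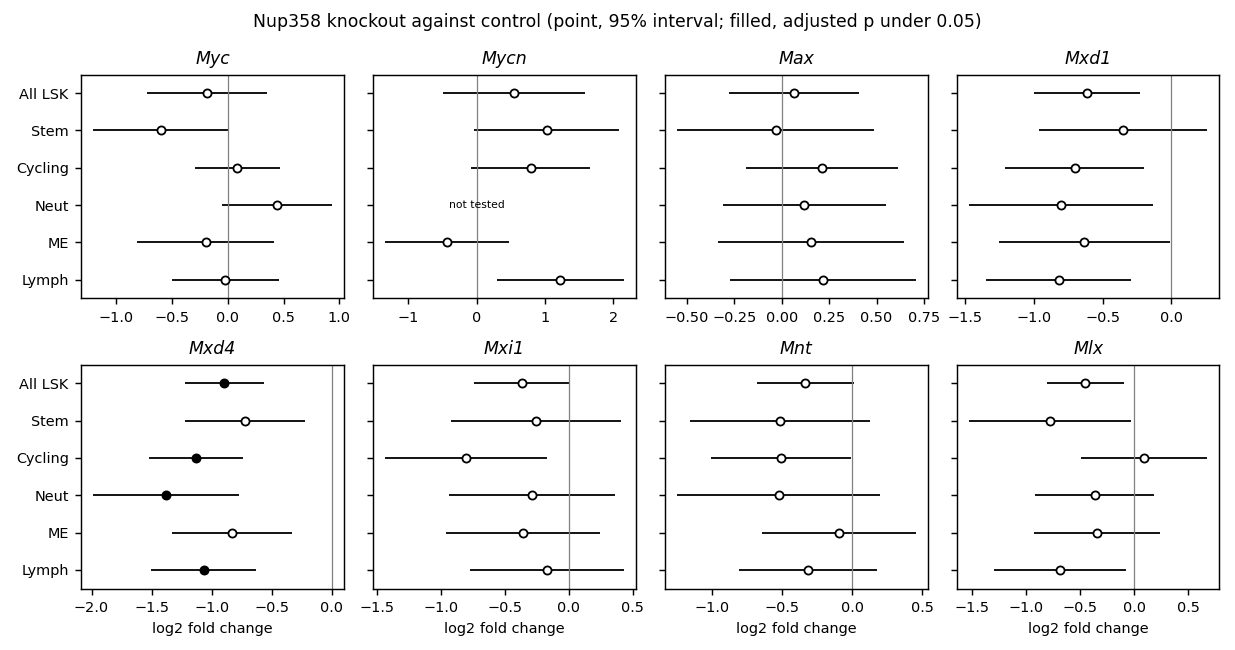
Log2 fold change of each member in Nup358 knockout over control cells with its 95% interval, over all LSK cells and in 5 gates (edgeR, 2 libraries per genotype); filled points have an adjusted p under 0.05 and axes differ between genes. All 6 Mxd4 intervals lie below 0, and Mycn was too low to test in the neutrophil-primed gate.

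The other repressors had negative estimates without passing. Over all LSK cells Mxd1 and Mxi1, and not Mnt, were lower at an unadjusted p under 0.05 (edgeR), beside 1670 of all 13779 genes. Mlx was lower at that p too, so a lower estimate was not particular to the repressors. Mxd1 was at 22.6 and 27.0 CPM in the controls and 16.3 and 16.9 CPM in the knockouts over all LSK cells (-0.61 ± 0.16, adjusted p = 0.0885). Its fold changes within gates ran from -0.35 in stem-like to -0.82 in lymphoid-primed cells (15.1 against 27.2 CPM in the mean, adjusted p = 0.0898). In stem-like cells the genotypes lay close, at 27.8 and 36.7 CPM in the controls and 27.3 and 25.8 CPM in the knockouts. Mxd1 over all LSK cells passed without control replicate 1 (-0.77, adjusted p = 0.00797), without control replicate 2 (-0.46, adjusted p = 0.0455) and with no filter on low counts (-0.60, adjusted p = 0.0195), and in lymphoid-primed cells it passed without either control replicate (-0.77, adjusted p = 0.0407, and -0.87, adjusted p = 0.0246). Mxi1 was at 20.5 and 19.2 CPM in the controls and 17.2 and 14.5 CPM in the knockouts (-0.37 ± 0.16, adjusted p = 0.230). Mnt was at 31.8 and 27.0 CPM against 23.2 and 24.8 CPM (-0.33 ± 0.15, adjusted p = 0.246). The 95% interval of Mnt ran from -0.68 to 0.01. Within gates Mxi1 ran from -0.17 in lymphoid-primed to -0.80 in cycling unprimed cells, and its genotypes overlapped in all but the latter. Mnt ran from -0.09 in megakaryocyte-erythroid-primed cells (25.7 CPM in the controls and 25.4 CPM in the knockouts, means) to -0.52 in neutrophil-primed cells. Its genotypes overlapped in these gates and in stem-like cells. Neither gene passed in a gate.

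Mlx was at 24.3 and 26.8 CPM in the controls and 20.0 and 18.4 CPM in the knockouts (-0.45 ± 0.15, adjusted p = 0.146). Within gates Mlx ran from -0.78 ± 0.34 in stem-like cells to 0.09 ± 0.26 in cycling unprimed cells and passed in none of them. Without control replicate 1 it passed over all LSK cells (-0.55, adjusted p = 0.0256), in stem-like cells (-0.99, adjusted p = 0.0410) and in lymphoid-primed cells (-0.86, adjusted p = 0.0233).

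Myc did not pass over all LSK cells, where its 4 libraries overlapped (92.8 and 130 CPM in the controls, 116 and 86.2 CPM in the knockouts). The fold change was -0.18 ± 0.23 (95% interval -0.72 to 0.35, adjusted p = 0.685). Within gates Myc was lower in knockout stem-like cells (-0.60 ± 0.27, adjusted p = 0.458) and higher in knockout neutrophil-primed cells (0.44 ± 0.23, adjusted p = 0.367) by its point estimate, and neither passed. It passed in stem-like cells without control replicate 1 (-0.90, adjusted p = 0.000429) and in neutrophil-primed cells without control replicate 2 (0.77, adjusted p = 0.00590). In cycling unprimed cells Myc was close to level, at 84.1 and 77.1 CPM in the controls and 82.5 and 87.4 CPM in the knockouts (0.09 ± 0.17, 95% interval -0.29 to 0.46).

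Mycn was set apart by 1 library. Over all LSK cells it was at 3.91 CPM in control replicate 1, at 10.6 CPM in control replicate 2 and at 9.13 and 11.9 CPM in the knockouts. The second control lay between the knockouts, and the difference did not pass (0.54 ± 0.44, 95% interval -0.50 to 1.58, adjusted p = 0.525). In stem-like cells the fitted difference was 1.03 ± 0.48 and did not pass (adjusted p = 0.470). Cycling unprimed (0.79 ± 0.39, adjusted p = 0.339) and megakaryocyte-erythroid-primed cells (-0.43 ± 0.42, adjusted p = 0.766) did not pass either. Without control replicate 2 the estimate for Mycn was 1.41 over all LSK cells and 2.18 in stem-like cells, where the controls are control replicate 1 alone. In lymphoid-primed cells Mycn was at 3.86 and 3.36 CPM in the controls and 5.23 and 10.2 CPM in the knockouts, from 8 to 40 UMIs, and did not pass (1.22 ± 0.43, adjusted p = 0.137). Max did not pass in any comparison of the genotypes, with fold changes from -0.03 in stem-like to 0.22 in lymphoid-primed cells and, over all LSK cells, a 95% interval from -0.28 to 0.41.

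Whether the effect of the genotype differed between gates was tested as an interaction, with the stem-like gate as the reference. For Myc the knockout effect was higher in neutrophil-primed than in stem-like cells by 0.98 ± 0.22 (adjusted p = 0.0147), in a comparison where 2.02% of 11426 genes passed (0.499% higher, 1.52% lower) and Myc was the only member. For Mycn the knockout effect was lower in megakaryocyte-erythroid-primed cells, by -1.81 ± 0.41 (adjusted p = 0.0486), where 0.376% passed (0.0438% higher, 0.333% lower) and Mycn was the only member. Its levels there were 13.8 and 28.8 CPM in the controls and 8.29 and 16.9 CPM in the knockouts, from 12 to 61 UMIs, and overlapped, while the stem-like levels were higher in both knockouts than in both controls. For Mxd4 the interactions ran from -0.14 to -0.73 and none passed (smallest adjusted p = 0.149), so that a difference of its fall between gates was not shown. No member passed in cycling unprimed cells, where 0.446% of genes did (0.0788% higher, 0.368% lower), or in lymphoid-primed cells, where 0.0875% did (0.035% higher, 0.0525% lower). The neutrophil-primed gate differed between the genotypes in its own markers, with Elane at 3126 and 2952 CPM in the controls and 452 and 398 CPM in the knockouts and 4 of the 9 neutrophil markers called lower. Stem-like knockout cells had higher point estimates for 19 of 19 cycling markers, with none called. The part of these differences in the Myc and Mycn interactions was not tested. Both interaction calls were lost without either knockout library, with Myc at 1.10 (adjusted p = 0.102) and 0.84 (adjusted p = 0.357) and Mycn at -1.59 (adjusted p = 0.447) and -2.40 (adjusted p = 0.532). Mycn was also lost without control replicate 1 (-1.54, adjusted p = 0.101), and Myc in cycling unprimed cells was gained without it (1.06, adjusted p = 0.0160).

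Some of the target genes were higher in the knockout in lymphoid-primed, cycling unprimed and neutrophil-primed cells. Over all LSK cells none of the 25 ribosome biogenesis and none of the 18 growth genes passed, although 24 and 14 of them had a positive estimate, with medians of 0.32 and 0.24 against -0.00798 over all genes. At an unadjusted p under 0.05 edgeR gave 9 and 5 genes, all higher, beside 1316 higher of all 13779 genes tested. DESeq2 called 2 and 1 after adjustment. Over all LSK cells genes of both lists passed without either control replicate, and none without either knockout replicate. The share of all genes called in those fits is not given here. In lymphoid-primed cells 8 of 25 ribosome biogenesis genes were called higher and none lower, where 0.842% of all genes tested were called higher. The largest changes were those of Polr1b, a subunit of RNA polymerase I (22.0 and 11.6 CPM in the controls, 36.6 and 44.2 CPM in the knockouts, 1.30 ± 0.27, adjusted p = 0.0298), Nop2 (25.9 and 21.3 against 58.8 and 51.1 CPM, 1.21 ± 0.21, adjusted p = 0.0158) and Rrp12 (1.21 ± 0.27, adjusted p = 0.0386), the latter both needed to process ribosomal RNA. In cycling unprimed cells 3 of 25 were higher, where 0.501% of all genes were, namely nucleolin Ncl (1119 and 887 CPM against 1944 and 1984 CPM, 0.98 ± 0.20, adjusted p = 0.0470), the nucleolar GTPase Gnl3 (63.4 and 54.7 against 125 and 112 CPM, 0.99 ± 0.18, adjusted p = 0.0310) and Nip7 (0.94 ± 0.18, adjusted p = 0.0390). Both knockout libraries were above both controls for each gene whose levels are given here. These genes were called on the same libraries, so that the order of their levels adds no separate support. The list medians were 0.66 in lymphoid-primed and 0.63 in cycling unprimed cells. None of the 25 passed in stem-like, neutrophil-primed or megakaryocyte-erythroid-primed cells, where the medians were 0.30, 0.37 and 0.38. At an unadjusted p under 0.05 there were 6, 7 and 8 genes in these gates, all higher, and DESeq2 called 0, 1 and 0. Of all genes tested, 472 of 10057, 672 of 9885 and 438 of 9724 were higher at that p in the same gates.

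Of the growth genes 4 of 18 were called higher in lymphoid-primed cells, with the chaperonin Hspd1 (0.96 ± 0.19, adjusted p = 0.0252), Srm (0.85 ± 0.19, adjusted p = 0.0368) and the ornithine decarboxylase Odc1 (0.85 ± 0.17, adjusted p = 0.0232) at the head, and Ccnd2 (0.83 ± 0.16, adjusted p = 0.0258) the other. Ccnd2, which encodes cyclin D2, was also the 1 gene of 18 called in cycling unprimed (119 and 96.1 CPM in the controls, 218 and 185 CPM in the knockouts, 0.90 ± 0.18, adjusted p = 0.0473) and in neutrophil-primed cells (119 and 106 CPM against 250 and 226 CPM, 1.06 ± 0.17, adjusted p = 0.00995). The inhibitor Cdkn1b, one of the genes that Myc represses, was lower in the knockout in lymphoid-primed (91.9 and 105 against 34.0 and 47.2 CPM, -1.24 ± 0.21, adjusted p = 0.0153) and neutrophil-primed cells (47.6 and 43.7 against 24.2 and 20.7 CPM, -1.03 ± 0.22, adjusted p = 0.0356). The genotypes were apart for both genes in each of these gates, which adds no separate support to calls made on the same libraries. None of the 16 cofactor and turnover genes and none of the remaining partners Mxd3, Mga, Mlxip, Mycl, or of Txnip and Arrdc4, passed in any of the 6 genotype comparisons in which they were tested. At an unadjusted p under 0.05 edgeR gave 1 to 4 of the 16 in each. Of all genes, those at that p ran from 1097 of 10057 in stem-like cells to 2986 of 13779 over all LSK cells. The counts of the 16 are therefore not read as a result about this list. The part of the knockout effect that differed from that in stem-like cells passed for 6 of these list genes. In cycling unprimed cells it was higher for Ncl (0.40, adjusted p = 0.0241), 1 of 25 ribosome biogenesis genes. It was also higher there for Srm (0.85, adjusted p = 0.0241) and Hspd1 (0.46, adjusted p = 0.0326), 2 of 18 growth genes, beside 0.0788% of all genes. In neutrophil-primed cells it was higher for Ccnd2 (0.62, adjusted p = 0.0141), 1 of 18, and Pim1 (0.57, adjusted p = 0.0122), 1 of 16 cofactor and turnover genes, beside 0.499% of all genes. In megakaryocyte-erythroid-primed cells it was lower for Tfrc (-1.42, adjusted p = 0.0217), 1 of 18, beside 0.333% of all genes. A single gene called is not read as a result about its list.

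In the lymphoid-primed gate 2 of the 3 B-lineage markers tested were called higher in the knockout, and their part in these values was not tested. The cycling unprimed gate differed in markers too, with 3 of the 13 stem markers tested called higher. In that gate 2 of 7 neutrophil and 1 of 3 lymphoid markers were called lower, beside 0.501% of all genes higher and 0.916% lower. Of its 19 cycling markers 3 had a positive estimate and none was called. The part of these differences was not tested. The counts of target genes called moved with the libraries. In lymphoid-primed cells more genes of both lists were called without either control replicate, and none without either knockout replicate. The medians there stayed between 0.48 and 0.73. The calls in cycling unprimed cells moved in the same way. The share of all genes called in these fits is not set beside them, so that a change of the lists and one of all genes are not told apart.

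**Figure D4:**
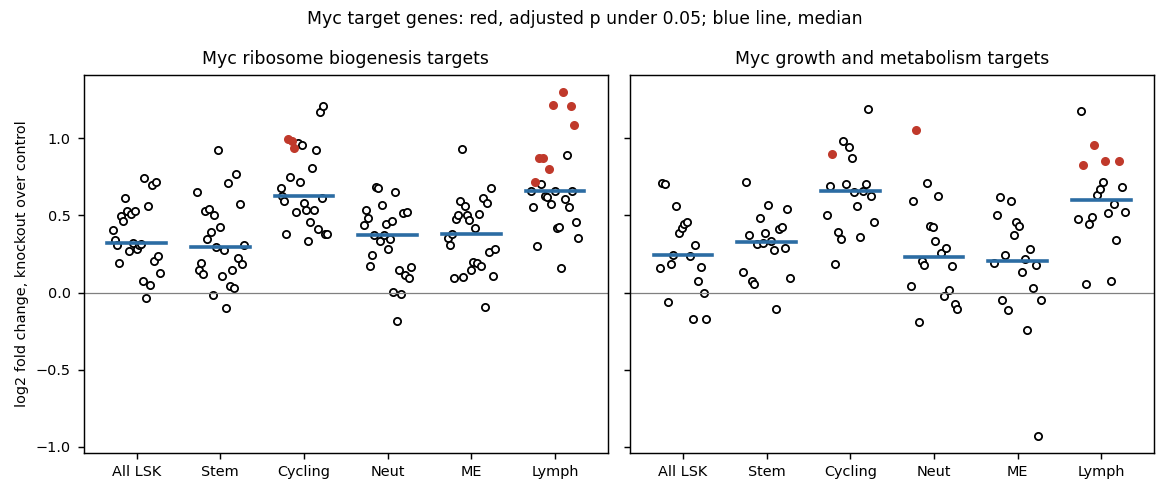
Log2 fold change in Nup358 knockout over control cells for 25 ribosome biogenesis genes (left) and 18 growth and metabolism genes (right), over all LSK cells and in 5 gates; each circle is a gene, red circles have an adjusted p under 0.05 and blue lines are medians. Red circles are seen in the cycling unprimed and lymphoid-primed columns (3 and 8 on the left, 1 and 4 on the right) and once on the right in the neutrophil-primed column.

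The genes whose levels ran most like each member were found over the 24 sums of gates and libraries, after removal of each library's mean, among 5972 genes of at least 20 CPM. The sums of 1 library share its depth and its mice, and the correlations (Pearson's r of log2 CPM) are descriptions only. Mxd4 ran closest to Plekha2 (0.96), Fam134b (0.95) and Cirbp (0.93). Mycn ran closest to Ube2l6 (0.95), Sgms1 (0.94) and Foxn3 (0.93), and Mxd1 to Mtmr3, Spred1 and Smarca2 (each at 0.93 or 0.94). Myc ran closest to Rsl1d1 (0.84), a nucleolar protein, then to the ribosomal protein gene Rpl6 (0.77) and Naca (0.77), which codes for a chaperone of nascent chains. The nearest genes were Dazap1 (0.89), Mrpl51 (0.85) and Ndufs5 (0.84) for Mlx, Fam195a (0.83), Gnl1 (0.82) and Tomm20 (0.81) for Max, Tbl1x (0.85), Zfp280d (0.84) and H2-Q4 (0.84) for Mxi1, and Kat6b (0.84), Sash3 (0.83) and Adipor2 (0.82) for Mnt. Within the network the repressors ran together, at 0.79 for Mxd4 with Mxi1 and 0.76 for Mxd4 with Mxd1. Mxd1 also ran with Mycn (0.86), whereas Myc was negative with Mxd4 (-0.55) and positive with Max (0.68).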

How the data were processed

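LSK cells of 2 control and 2 Nup358 knockout libraries were measured. The authors aligned reads to mm10 (GRCm38) with Cell Ranger 3.1, per the labels, and deposited UMI counts per gene and barcode without normalization. Doublet removal is not given in the sources used here and none was done, except that cells high for more than 1 lineage list were set apart.

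Kept cells had 200 or more genes and no more than 10% of UMIs from mitochondrial genes, and copied barcodes were left out. Gates used 3000 UMIs per cell (random seed 1), and sums needed 20 cells. Python 3.11.15 (numpy 2.4.6, scipy 1.17.1, pandas 2.3.3) and R 4.3.3 with edgeR 4.0.16 and limma 3.58.1 were used. Sums were tested by edgeR's quasi-likelihood method after TMM scaling and filterByExpr, with Benjamini-Hochberg adjustment over all genes at 0.05. Genotype fits used 4 sums, gate fits 24 with library as a term. The steps were tested on simulated data, in which the share of false calls was above the nominal level in the genotype fits over all LSK cells and in neutrophil-primed cells. CPM are UMIs per 1000000 UMIs of the sum, without the TMM factors that enter the fold changes. The UMIs of each sum set the counting error. They ran from 18846887 to 59033602 per library over all LSK cells and from 832608 to 22480294 in the 5 gates. The p-values of the genotype fits measure the spread between pools of mice. In the gate and interaction fits the library terms take up that spread. Their p-values measure what is left between the gate sums of the same pools. Replicate numbers were not used to pair libraries in the reported fits, and whether they did pair them is not known.

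Members and lists were chosen with earlier results of these data known. All members were named, with up to 3 called genes per list and direction (ribosome biogenesis, growth, Miz1, cofactors), all Mlx targets and partners, and the 3 genes most like each member. Naming Ccnd2 beside 3 others in lymphoid-primed cells, Elane, and the levels shown for list genes were chosen after their values were seen. Alternatives were copied barcodes kept, 500 genes, RLE scaling, no low-count filter, DESeq2 1.42.0, a replicate block, gate limits of 25% or 8% (the mean share over libraries) or gates at 2000 UMIs, and each library left out. Added after seeing the data were no cells set apart by the plasmacytoid, T and NK list, and no B-lineage cells. Of 27998 gene identifiers, 27645 were in the annotation used for positions.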

Additional observations from a re-analysis of the deposited data

Results flagged for a closer look

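The effect of the knockout on Myc differed between neutrophil-primed and stem-like cells by 0.984 on the log2 scale (SE 0.22, edgeR interaction, adjusted p = 0.0147). In the neutrophil-primed gate Myc was at 167 and 126 CPM in the knockouts and 89.3 and 124 CPM in the controls, and in the stem-like gate at 105 and 65.8 CPM against 102 and 143 CPM. The genotype difference did not pass in either gate on its own (adjusted p = 0.367 and 0.458). The effect on Mycn differed between megakaryocyte-erythroid-primed and stem-like cells by -1.81 (SE 0.41, adjusted p = 0.0486). Neither call was made when either knockout library was left out, and the gates differ in size between the genotypes.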

How the results depend on the processing

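The counts of members called were recomputed under each alternative. With the gate limit (the mean share of cells over the 4 libraries) at 25%, 5 members were called in cycling unprimed against stem-like cells and 1 with the limit at 8% (2 in the values reported). The genotype by gate comparisons gave 1 call with the limit at 25%, at 2000 UMIs, and with no cells set apart by the plasmacytoid, T and NK list (2 reported), each time by loss of Mycn (-1.34, -1.40 and -1.80, adjusted p = 0.0990, 0.114 and 0.0684). In cycling unprimed cells the genotype gave 0 calls with the limit at 8% (Mxd4 adjusted p = 0.0520; 1 reported), and over all LSK cells it gave 2 with no filter on low counts (1 reported). With the replicate number as a block the count in cycling unprimed cells was 0 (Mxd4 at -1.12, adjusted p = 0.0839), and the block changed no other call of a member. The deviations of same-numbered libraries had r = -0.06 over 13779 genes. With 2 libraries per genotype this is a single comparison, which cannot tell whether the replicate numbers paired the libraries. Leaving out each library in turn gave 0 to 3 calls over all LSK cells, 0 to 2 in stem-like, 0 to 1 in cycling unprimed, 0 to 2 in neutrophil-primed, 0 to 1 in megakaryocyte-erythroid-primed and 0 to 3 in lymphoid-primed cells for the genotype, 1 to 2 in cycling unprimed, 7 in neutrophil-primed and 1 to 2 in lymphoid-primed against stem-like cells, and 0 to 2 for genotype by gate. In these fits a lone library is assumed to vary like the others. The share of all genes that each fit called is not set beside these counts, which are no result about the members. Of 1363 results of single members under alternatives, 1315 stayed on their side of the threshold, 26 calls were lost, 22 gained and 0 reversed. Keeping copied barcodes, a minimum of 500 genes, RLE scaling and DESeq2 moved no count of members called by more than 1.5 times. In neutrophil-primed cells Mycn rested on 2 to 18 UMIs per library, which limits its fold change.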

Other observations

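The B-lineage gate held 234 cells and gave sums in the knockouts only, from 48 cells in replicate 1 and 172 in replicate 2. Myc was at 74.0 and 46.7 CPM in these 2 sums and Mycn at 1.90 and 3.33 CPM, from 1 and 8 UMIs. In the same order Max was at 53.1 and 54.2 CPM, Mxd1 at 13.3 and 8.34 CPM and Mxd4 at 49.3 and 16.3 CPM. Mxi1 was at 17.1 and 10.8 CPM, Mnt at 11.4 and 20.0 CPM and Mlx at 28.5 and 17.9 CPM.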
